A study of Mus musculus with 5 samples.

Results

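The Kv4 A-type potassium channel complex was examined in RNA bound to tagged ribosomes from mouse cerebral cortex and dentate gyrus. Its 8 member genes were chosen by function, with earlier results of these data known, and read by symbol from the 32531 genes listed in the count tables. They were the pore genes Kcnd2 and Kcnd3, the KChIP genes Kcnip1, Kcnip2, Kcnip3 and Kcnip4, and the genes Dpp6 and Dpp10. All 8 were listed and all 8 were among the 14136 genes tested. The mice were adult and carried the Rbp4-Cre KL100 transgene and a Cre-dependent EGFP-tagged Rpl10a at the Rosa26 locus, in both tissues alike and without treatment. Cerebral cortex gave 2 libraries and dentate gyrus gave 3, each the fraction pulled down with antibodies against EGFP, a method called translating ribosome affinity purification (TRAP). Cre in this line is driven by Rbp4 regulatory sequence and, as background that is not in the labels, the line is widely used to mark layer 5 pyramidal neurons. No unpurified input was analysed here, so these values are levels in pulled-down RNA and not enrichments. The labels do not say whether libraries of a tissue came from separate animals, or whether animals were pooled, so p-values measure only the spread between these libraries, which may be technical.

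A-type potassium currents switch on at voltages below spike threshold and inactivate quickly. In the dendrites of hippocampal and cortical neurons they delay firing and limit how far spikes travel back from the soma. The channel has a pore made of Kv4 subunits, to which cytoplasmic KChIP proteins and membrane-spanning DPP6 or DPP10 proteins attach. KChIPs are calcium-binding proteins of the neuronal calcium sensor family that raise surface expression and alter inactivation, and the DPP proteins speed activation and inactivation and belong to a family of peptidases whose activity they have lost.

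Genes of a family can be told apart by reads only where their sequences differ, and the closest stretches are shown for that reason. Over the 651 aligned coding bases of the KChIP genes, 51.8% were the same in all 4, and pairs of KChIP genes were 67.7% to 72.2% identical. The 90 coding bases most alike among them, 60 of which were shared by all 4, encode part of the calcium-binding EF-hand core. They are printed from GENCODE M21 transcripts (GRCm38), 5′ to 3′, with capitals where all 4 genes have the same base.
Kcnip1: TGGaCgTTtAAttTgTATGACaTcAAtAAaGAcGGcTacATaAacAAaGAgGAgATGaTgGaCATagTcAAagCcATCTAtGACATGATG
Kcnip2: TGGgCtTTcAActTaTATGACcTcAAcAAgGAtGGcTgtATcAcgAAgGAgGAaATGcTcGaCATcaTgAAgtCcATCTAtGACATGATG
Kcnip3: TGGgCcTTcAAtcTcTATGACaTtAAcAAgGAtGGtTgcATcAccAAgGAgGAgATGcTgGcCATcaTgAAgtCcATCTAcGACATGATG
Kcnip4: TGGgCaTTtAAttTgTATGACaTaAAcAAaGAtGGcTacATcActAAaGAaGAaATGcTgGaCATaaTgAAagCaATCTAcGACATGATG

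The coding sequences of Kcnd2 and Kcnd3 were 72.6% identical over 1884 aligned bases. Those of Dpp6 and Dpp10 were 57.9% identical over 2388 aligned bases. The closest 90 bases of each pair follow, with capitals where the pair has the same base. The Kcnd stretch runs into the first membrane-spanning segment, and the Dpp stretch covers most of the membrane-spanning segment of these proteins.
Kcnd2: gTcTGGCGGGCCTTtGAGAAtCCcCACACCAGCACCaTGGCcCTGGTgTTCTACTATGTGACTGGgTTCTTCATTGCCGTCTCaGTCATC
Kcnd3: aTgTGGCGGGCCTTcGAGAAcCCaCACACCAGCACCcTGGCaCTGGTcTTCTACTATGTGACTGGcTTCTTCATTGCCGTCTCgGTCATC
Dpp6: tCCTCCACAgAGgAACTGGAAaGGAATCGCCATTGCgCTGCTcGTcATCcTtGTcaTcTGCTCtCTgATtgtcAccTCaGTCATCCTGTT
Dpp10: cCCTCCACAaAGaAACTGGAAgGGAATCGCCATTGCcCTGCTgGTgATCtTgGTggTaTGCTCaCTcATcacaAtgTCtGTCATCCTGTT
All annotated transcripts, UTRs included, were compared in the sense direction only, and matches to a reverse complement were not sought. No pair among the 28 pairs of members shared a stretch of 50 bases, and 1 pair, Kcnip3 and Dpp6, shared any stretch of 36 bases. The read length is not given in the sources used here.

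Depth and tissue identity were as follows. Gene counts ran from 22600963 to 36837908 per library, so that 3 counts correspond to 0.0828 to 0.133 CPM (counts scaled to library size), and the smallest member value, Kcnip1 in dentate gyrus replicate 1, rests on 20 counts. All 12 granule cell markers listed were higher in dentate gyrus, with a summed level of 5800 to 6200 CPM there and 622 to 652 CPM in cortex. Cortex was higher in 5 of 8 layer 5 markers, and dentate gyrus in 1, Bcl11b, which granule cells also express. GABAergic interneuron markers summed to 2050 and 2170 CPM in cortex and to 624 to 689 CPM in dentate gyrus. Of these markers, 7 of 14 were higher in cortex and 2, Gad1 and Adarb2, higher in dentate gyrus. Most of the sum in every library was Cck (1170 and 1040 CPM in cortex, 299 to 344 CPM in dentate gyrus) and Sst together. Markers of cortical layers 2 to 4 summed to 1040 and 1100 CPM in cortex and 464 to 479 CPM in dentate gyrus. Of these, 4 of 6 were higher in cortex and 1, Rasgrf2, in dentate gyrus. Astrocyte markers summed to 979 to 1300 CPM over the libraries, most of it Slc1a2, and oligodendrocyte lineage markers to 168 to 291 CPM. In both lists 4 genes were higher in cortex, and 1 astrocyte marker was higher in dentate gyrus. Microglia markers summed to at most 9.44 CPM in any library, with C1qa at 0 counts in all 5. Cortex replicate 1 and dentate gyrus replicate 2 stood apart: the cerebellar marker Car8 was at 411 CPM in cortex replicate 1 against 1.44 CPM in replicate 2, and Dcn, a gene of meningeal and perivascular fibroblasts, was at 114 CPM in dentate gyrus replicate 2 against 1.71 and 10.5 CPM in replicates 1 and 3. Dcn made up most of the summed vascular and meningeal markers of that library (140 CPM). Endothelial markers did not share a direction there. Pecam1 was lowest, at 0.4 CPM against 1.30 and 1.76 CPM in replicates 1 and 3. Flt1 was highest, at 14 CPM against 4.99 and 7.32 CPM, and so was Kdr, at 2.22 CPM against 1.27 and 1.84 CPM. Results for the members without both libraries are given with each group. In pulled-down RNA from tissue, fewer cells of a type and less RNA per cell cannot be told apart.

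The subunits did not move together between the tissues. Ribosome-bound RNA of dentate gyrus held more Kcnd2, Kcnip2 and Dpp6, and cortex libraries held more Kcnip3 and, by 10.6-fold, more Dpp10. Smaller differences toward dentate gyrus in Kcnd3 and Kcnip4 passed the test but failed it in 8 and 12 of 17 alternative settings, and Kcnip1, lower in every dentate gyrus library, did not pass. Changes are log2 fold changes of dentate gyrus minus cortex from edgeR's quasi-likelihood test over all genes, with a standard error (SE), and a gene was called at a Benjamini-Hochberg adjusted p under 0.05. By this test 5 of 8 members were higher in dentate gyrus and 2 of 8 higher in cortex, where 10.5% and 10.8% of all tested genes were called in those directions and 21.3% in either. The 5 became 3 when either cortex library, or replicate 1 or 2 of dentate gyrus, was left out. The values of all 8 members did not overlap between tissues, which was so for 50.1% of all tested genes. The median change of the members was 0.47 and that of all tested genes 0.02, and the median size of change regardless of direction was 1.09 and 0.66.

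**Figure D1:**
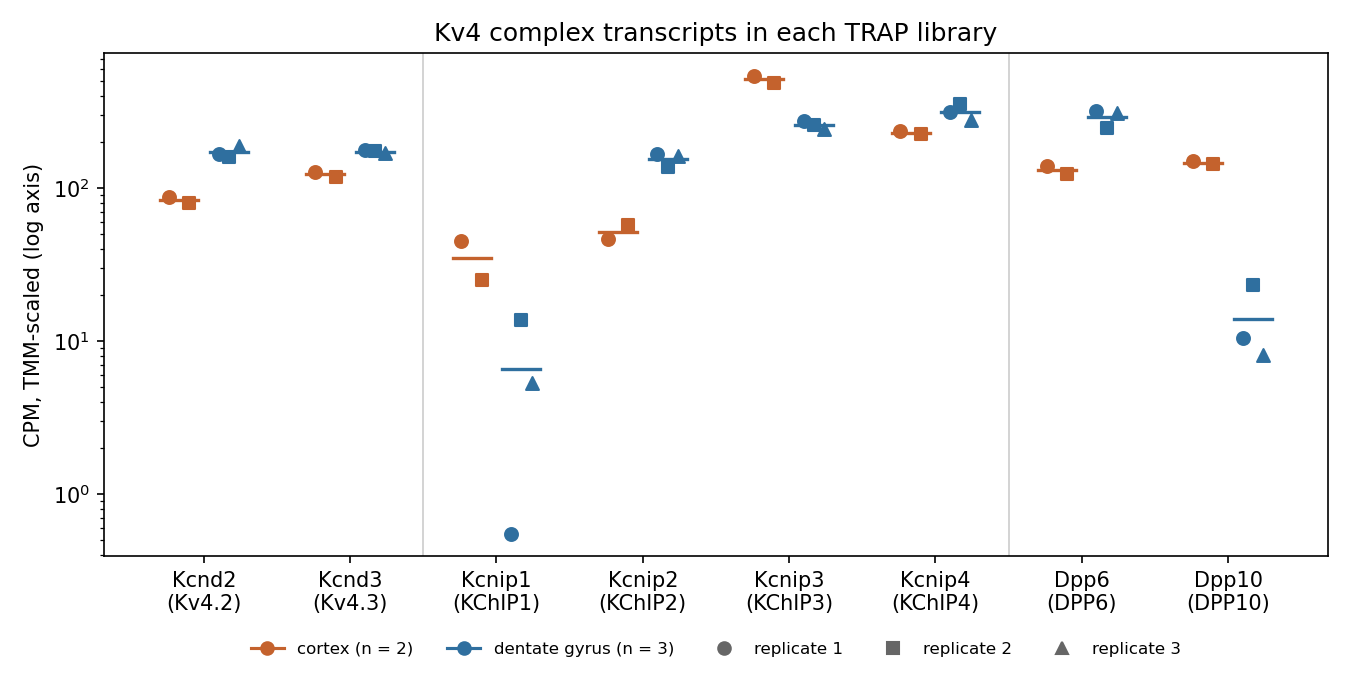
Level of each member in each library, in CPM scaled by TMM, on a log axis. Symbols are replicates and bars are tissue means, cortex n = 2 and dentate gyrus n = 3. Dpp10 lies between 8.11 and 23.1 in dentate gyrus and at 144 and 149 in cortex, while Kcnip2 lies between 138 and 166 in dentate gyrus and at 46.3 and 57.4 in cortex.

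The pore genes were both more abundant in dentate gyrus, Kcnd2 more so. Kcnd2 encodes Kv4.2, the main dendritic A-type pore subunit of hippocampal pyramidal and granule neurons, and lies on chromosome 6 (GRCm38, 21215503 to 21729805, plus strand). Cortex replicate 1 held 87.6 CPM of Kcnd2 and replicate 2 held 79.5 CPM, and the dentate gyrus replicates held 166, 159 and 189 CPM in their order. Every dentate gyrus library was thus well above both cortex libraries, by 2.05-fold in the fit (log2 1.03, SE 0.16, adjusted p 0.00152). Without both libraries that stood apart the change was 1.16 (SE 0.23, adjusted p 0.0158).

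Kcnd3 encodes Kv4.3, a pore subunit that many interneurons also use, and lies on chromosome 3 (105452330 to 105674002, plus strand). Its cortex values were 127 and 118 CPM and its dentate gyrus values 176, 174 and 168 CPM. The groups did not overlap, but the difference was small (log2 0.49, SE 0.14, 95% interval 0.17 to 0.81, adjusted p 0.0350). It was no longer called without any 1 of the 5 libraries, with adjusted p from 0.0815 to 0.223, or without both libraries that stood apart (0.155). The antisense gene Kcnd3os shares 165 bases of the Kcnd3 exons and had at most 22 counts in a library.

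Kcnd1, the remaining Kv4 pore gene and no member of the set, was low in both tissues. It was at 5.45 and 7.14 CPM in cortex and at 5.55, 2.44 and 0.666 CPM in dentate gyrus. The groups overlapped (log2 -1.12, SE 0.84, adjusted p 0.404).

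Among the KChIP genes, Kcnip2 and Kcnip3 differed in opposite directions. Kcnip2 encodes KChIP2, best known as the KChIP of the cardiac transient outward current, and lies on chromosome 19 (45791839 to 45816061, minus strand). Cortex replicates 1 and 2 held 46.3 and 57.4 CPM of Kcnip2, and dentate gyrus replicates 1 to 3 held 166, 138 and 163 CPM. Every dentate gyrus library was far above both cortex libraries, and the fitted change was 3.0-fold (log2 1.59, SE 0.19, adjusted p 0.000286). Without both libraries that stood apart, the change was 1.52 (SE 0.24, adjusted p 0.00577).

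Kcnip3 encodes KChIP3, also known as calsenilin and as DREAM, a calcium-dependent transcriptional repressor. The gene lies on chromosome 2 (127456498 to 127522094, minus strand). It had the highest CPM of the members in cortex, 540 and 487 CPM, and was at 274, 257 and 243 CPM in dentate gyrus. The replicates of each tissue lay close together, and the level in dentate gyrus was lower by a factor of 1.99 (log2 -0.99, SE 0.12, adjusted p 0.000319). The change was -0.91 (SE 0.17, adjusted p 0.0147) without both libraries that stood apart.

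Kcnip4 encodes KChIP4, of which a splice form is known to slow inactivation instead of following the other KChIPs, and spans 1135.4 kb of chromosome 5 (48389502 to 49524907, minus strand). Counts per gene do not separate its splice forms. Kcnip4 was at 234 and 225 CPM in cortex and at 313, 352 and 278 CPM in dentate gyrus. The lowest dentate gyrus value was not far above the cortex values, and the change was small (log2 0.45, SE 0.14, 95% interval 0.14 to 0.76, adjusted p 0.0448). The call was lost in 12 of 17 alternatives, among them each other scaling, with adjusted p from 0.0522 to 0.0596, and the removal of either cortex replicate (0.130 and 0.228), dentate gyrus replicate 1 (0.0812) or replicate 2 (0.141). Without both libraries that stood apart, the Kcnip4 change was 0.4 on the log2 scale. Exons of the gene 5730480H06Rik on the opposite strand overlap those of Kcnip4 by 168 bases, and that gene had at most 13 counts in a library.

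Kcnip1 encodes KChIP1, a KChIP found in many GABAergic neurons, and lies on chromosome 11 (33629339 to 33993152, minus strand). Its CPM was the lowest of the members in both tissues, and its values varied widely. Cortex held 44.9 and 25.0 CPM, and dentate gyrus held 0.552, 13.8 and 5.29 CPM. All dentate gyrus libraries were below both cortex libraries, but they differed among themselves by a factor larger than the distance between the nearest libraries of the tissues. The change of -2.43 (SE 0.88, 95% interval -4.39 to -0.47) did not pass (adjusted p 0.0794).

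Single libraries decided the Kcnip1 call. It passed without dentate gyrus replicate 1 (log2 -1.90, adjusted p 0.0259), without dentate gyrus replicate 2 (-3.62, 0.0133), by limma voom (-3.68, 0.00342) and with no filter on low genes (-2.42, 4.87e-08). With no filter the Kcnip1 change itself was almost that of the main fit (-2.43). The edgeR adjusted p of Dpp10 also fell under that setting, from 0.000221 to 1.06e-42. It did not pass without cortex replicate 1 (0.304) or 2 (0.118), without dentate gyrus replicate 3 (0.164), or without both libraries that stood apart (-3.10, 0.110). Replicate 2, the dentate gyrus library with the highest Kcnip1, also had the highest Fezf2, a layer 5 transcription factor gene, at 60.2 CPM against 1.82 and 17.5 CPM in replicates 1 and 3. Of the other layer 5 markers listed, Deptor, Etv1, Parm1, Crym and Tshz2 were also highest in replicate 2. Bcl11b (370, 311 and 314 CPM in replicates 1, 2 and 3) and Bcl6 (157, 165 and 171 CPM) were not. The interneuron markers did not share an order over dentate gyrus replicates 1, 2 and 3. Slc32a1, the vesicular GABA transporter gene, was at 0.138, 1.73 and 2.58 CPM, lowest in replicate 1, the library with the lowest Kcnip1. Gad1 (71.6, 57.2 and 64.8 CPM), Sst (113, 80.8 and 72.4 CPM) and Npy (4.3, 1.64 and 3.09 CPM) were highest in that library. What part other cells had in the Kcnip1 values was not tested.

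The DPP genes gave the widest contrast. Dpp6, whose protein DPP6 is a partner of Kv4.2 in hippocampal dendrites, spans 910.3 kb of chromosome 5 (26817203 to 27727505, plus strand). It was at 140 and 123 CPM in cortex and at 316, 247 and 309 CPM in dentate gyrus. Each dentate gyrus library held more than either cortex library, with a fitted change of 2.21-fold (log2 1.14, SE 0.16, adjusted p 0.000753). Without both libraries that stood apart it was 1.35 (SE 0.20, adjusted p 0.00427).

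Dpp10, whose protein DPP10 has the same role in the channel, spans 724.1 kb of chromosome 1 (123321471 to 124045559, minus strand). The cortex libraries agreed closely at 149 and 144 CPM, while the dentate gyrus libraries held 10.4, 23.1 and 8.11 CPM, from 376, 519 and 207 counts. Even the highest dentate gyrus library was far below cortex, and Dpp10 was 10.6-fold higher in cortex (log2 -3.41, SE 0.39, 95% interval -4.27 to -2.55, adjusted p 0.000221). This placed Dpp10 at percentile 94.1 of all tested genes by size of change.

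Dentate gyrus replicate 2 had the highest Dpp10 as well as the highest Kcnip1 and Fezf2 of its tissue, though not the highest Bcl11b or Bcl6. Without that library the Dpp10 change was -4.00 (adjusted p 5.77e-06), and without it and cortex replicate 1 it was -3.95 (SE 0.31, adjusted p 0.000343). What part RNA of other cells had in the Dpp10 level of this library was not tested.

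**Figure D2:**
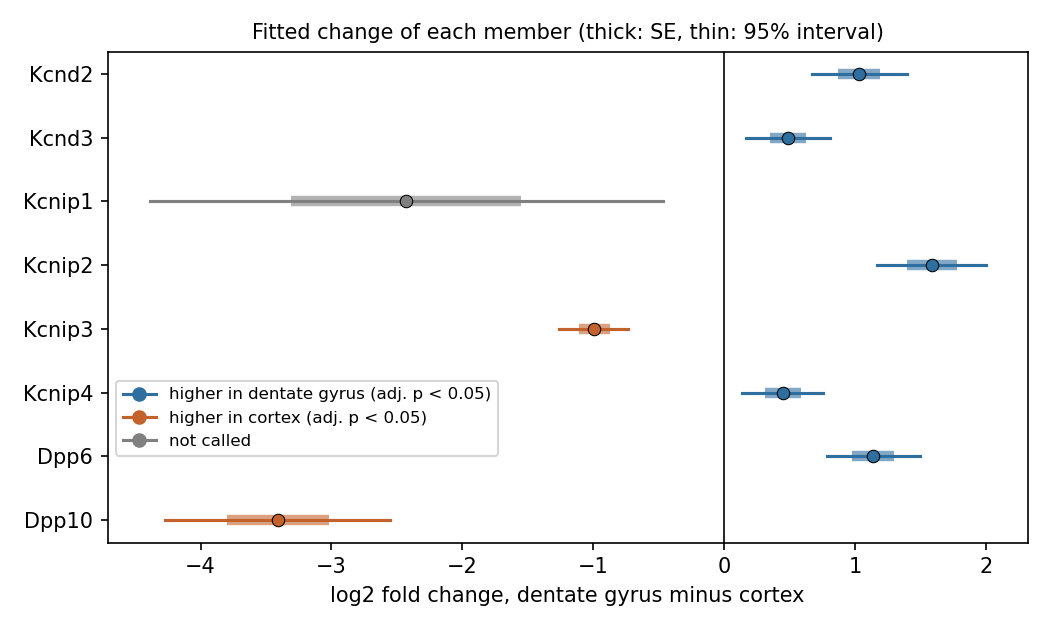
Fitted log2 fold change of each member, dentate gyrus minus cortex, with the SE as a thick bar and the 95% interval as a thin line, coloured by call. Kcnip2 (1.59) and Dpp10 (-3.41) are the called members with the largest changes in each direction, and Kcnip1 (-2.43) has the widest interval and was not called.

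Levels of different genes were compared after division by the length of the merged exons, as gene counts scaled to library size and per kilobase. In cortex the order was Kcnip3 at 146 ± 9.49 per kilobase, Kcnip4 at 64.1 ± 1.23, Kcnd2 at 16.4 ± 0.997, Kcnip2 at 15.1 ± 2.40, Kcnd3 at 12.9 ± 0.571, Dpp6 at 10.8 ± 0.897, Dpp10 at 9.39 ± 0.179 and Kcnip1 at 5.69 ± 2.25 (SD, n = 2). Kcnd2 and Kcnip2 overlapped between libraries in this order. In dentate gyrus it was Kcnip4 at 86.0 ± 10.3 per kilobase, Kcnip3 at 72.1 ± 3.99, Kcnip2 at 44.3 ± 4.13, Kcnd2 at 32.9 ± 3.12, Dpp6 at 23.3 ± 2.94, Kcnd3 at 17.8 ± 0.388, Kcnip1 at 1.05 ± 1.08 and Dpp10 at 0.871 ± 0.510 (SD, n = 3). There the nearest libraries of Kcnip4 and Kcnip3 were at 76.3 and 76.1, and Kcnip1 and Dpp10 overlapped. The place of Dpp6 depends on the length: over its longest transcript (4720 bases, against 12347 of merged exons) it was at 28.2 ± 2.35 per kilobase in cortex and 61.0 ± 7.70 in dentate gyrus, next after the leading KChIP genes in both tissues. With longest transcripts, Kcnd2, Kcnd3 and Kcnip2 overlapped in cortex (16.4 to 17.3 on average), as did Kcnip1 and Dpp10, and Dpp6 overlapped with Kcnip2 in dentate gyrus. Kcnip3 and Kcnip4 led both tissues under both lengths.

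Within each subunit family the shares of the genes in pulled-down RNA did not overlap between tissues. In CPM, the values of 50.1% of all tested genes did not overlap either. Kcnip3 made up 64.1% and 62.4% of the length-corrected KChIP counts in the 2 cortex libraries, against 36.6%, 34.3% and 35.5% in dentate gyrus. Kcnip2 made up 5.61% and 7.50% in cortex and 22.5%, 18.8% and 24.3% in dentate gyrus. Kcnip4 held 27.2% and 28.2% in cortex and 40.8%, 45.9% and 39.8% in dentate gyrus, where it was the leading KChIP gene. Kcnip3 therefore led in cortex and not in dentate gyrus, while the KChIP total per kilobase was 239 and 224 in cortex and 208, 211 and 192 in dentate gyrus.

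The DPP shares were furthest apart. Dpp10 held 45.5% and 47.8% of the length-corrected DPP counts in cortex and 2.50%, 6.80% and 2.01% in dentate gyrus. These shares depend on the lengths, since the merged exons of Dpp6 are much longer than its longest transcript. With the longest transcript as length, Dpp10 held 24.8% and 26.5% in cortex and 1.0%, 2.80% and 0.804% in dentate gyrus. Under both lengths Dpp6 led in every library.

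Among the pore genes, Kcnd2 held 54.3% and 53.0% of the length-corrected counts in cortex and 62.4%, 62.4% and 67.6% in dentate gyrus, and Kcnd3 held 42.4% and 42.3% in cortex and 35.6%, 36.7% and 32.2% in dentate gyrus. With the longest transcript as length, Kcnd3 and not Kcnd2 led in cortex, at 49.6% against 47.0% on average. No share of a member or of Kcnd1 overlapped between tissues, although Kcnd1 overlapped in CPM. Shares of a family add up to the whole, so they do not vary independently, and those of Dpp6 and Dpp10 mirror each other. An exact permutation test of 2 against 3 libraries, made two-sided by doubling the smaller tail, cannot give a p below 0.2, which each share reached.

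**Figure D3:**
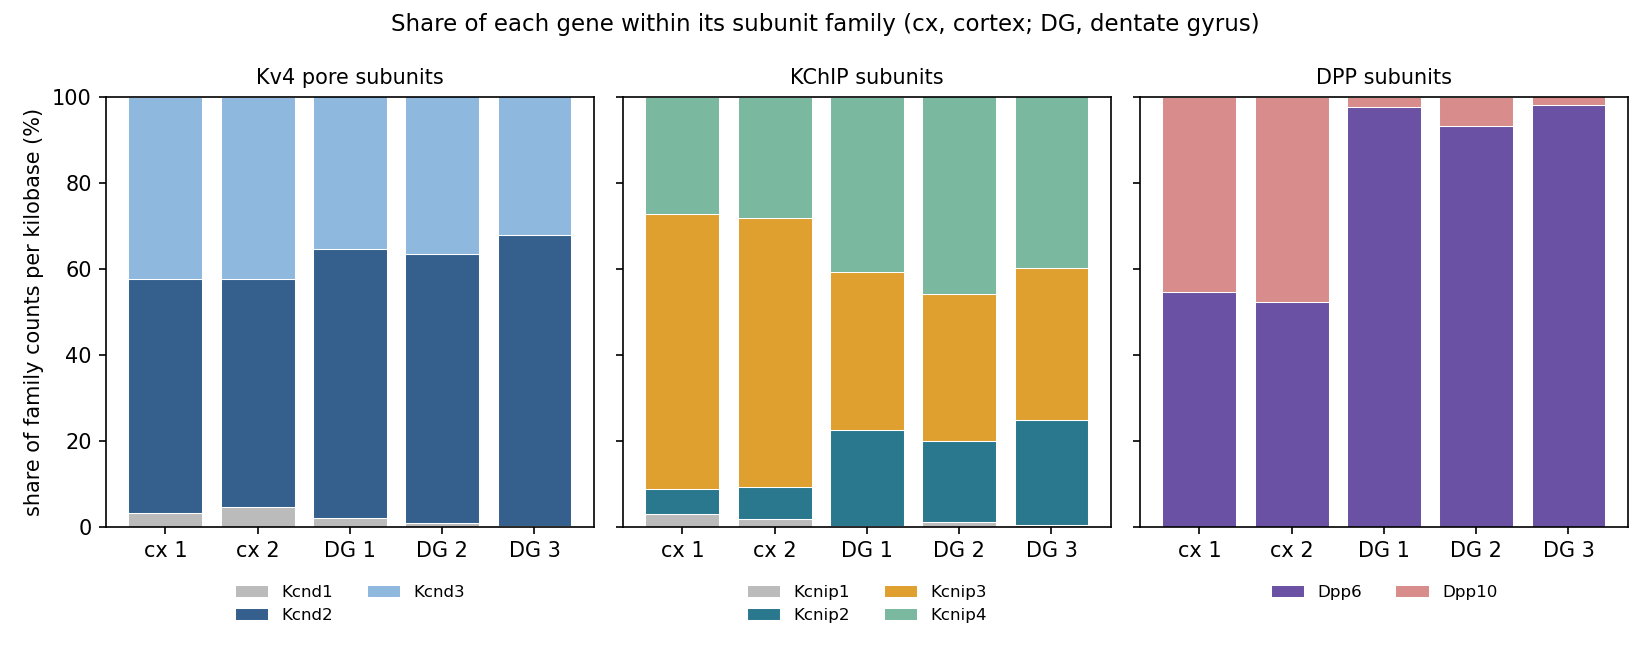
Share of each gene in the counts per kilobase of its subunit family, in percent, in cortex (cx) and dentate gyrus (DG) libraries. Kcnip3 holds 62.4% or more in cortex and 36.6% or less in dentate gyrus, and Dpp10 holds 45.5% or more and 6.80% or less.

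Set against the pore genes, the KChIP genes were relatively less abundant in dentate gyrus, while the result for the DPP genes depended on the length. The length-corrected KChIP total was 7.59 and 7.57 times the Kv4 pore total in cortex, and 4.10, 4.29 and 3.55 times in dentate gyrus. For the DPP total these ratios were 0.665 and 0.656 in cortex and 0.510, 0.435 and 0.470 in dentate gyrus. With longest transcripts the KChIP ratios were 8.99 and 8.93 in cortex and 4.93, 5.21 and 4.3 in dentate gyrus, and again did not overlap. The DPP ratios were then 1.10 and 1.07 in cortex and 1.17, 0.971 and 1.09 in dentate gyrus, which overlapped, so no difference between tissues is given for them. These are ratios of ribosome-bound RNA and not of protein.

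Other genes of fast inactivating potassium current were read from lists. Dentate gyrus was higher in 3 of 6 such genes and cortex in 1, against 10.5% and 10.8% of all tested genes. Kcnab3, a Kv beta subunit gene, was at 66.1 and 76.6 CPM in cortex and at 3.59, 8.79 and 2.31 CPM in dentate gyrus (log2 -3.87, SE 0.49, adjusted p 0.000422). As for Dpp10, replicate 2 held the most among the dentate gyrus libraries, and every one was far below cortex. Kcna4, the gene of the A-type subunit Kv1.4, was at 21.4 and 15.8 CPM in cortex and 38.9, 54.4 and 32.2 CPM in dentate gyrus (adjusted p 0.0257). Its call was lost without cortex replicate 1 (0.0558), cortex replicate 2 (0.181) or dentate gyrus replicate 2 (0.0858). The beta subunit gene Kcnab2 had a change of 0.50 (SE 0.15, adjusted p 0.0441), and its call was lost under each other scaling, with adjusted p from 0.0538 to 0.0589. None of 5 KCNE accessory subunit genes passed the filter, and together they reached at most 0.399 CPM in a library.

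The called neuronal calcium sensor genes outside the KChIPs did not share a direction. Of 9 listed and 7 tested, dentate gyrus was higher in 2 and cortex in 1, and 4 were not called. Of all tested genes 10.5% and 10.8% were called in those directions. Vsnl1, the gene of visinin-like protein 1, was at 14300 and 11700 CPM in cortex and 4100, 4950 and 3770 CPM in dentate gyrus (log2 -1.60, SE 0.12). Hippocalcin, encoded by Hpca, went the other way with 448 and 526 CPM in cortex and 1160, 1000 and 940 CPM in dentate gyrus (log2 1.09, SE 0.13). Ncald, the neurocalcin delta gene, had a change of 1.05 (SE 0.12). Ncs1, whose protein also binds Kv4 channels, was at 125 and 128 CPM in cortex and 127, 120 and 149 CPM in dentate gyrus (log2 0.06, SE 0.16, 95% interval -0.30 to 0.42) and was not called.

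Of 4 active peptidase genes related to Dpp6 and Dpp10, Fap was called higher in cortex, at 1.11 and 2.79 CPM there and with 1 count in all dentate gyrus libraries together. The Fap call was lost without cortex replicate 1 (adjusted p 0.0682) or 2 (0.215). Dpp8, the most abundant of the 4, was at 482 and 612 CPM in cortex and 620, 627 and 613 CPM in dentate gyrus and was not called.

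Among 16 genes of kinases, scaffolds and channels described as acting on Kv4, dentate gyrus was higher in 6 and cortex in 3. For all tested genes these shares were 10.5% and 10.8%. The kinase genes Camk2b, Camk2a and Mapk3 were all higher in dentate gyrus, by 1.5 (SE 0.16), 0.77 (SE 0.09) and 1.52 (SE 0.18) on the log2 scale. CaM kinase II, which Camk2a and Camk2b encode, phosphorylates Kv4.2. The T-type calcium channel genes, which were chosen after their values were seen and whose proteins can supply calcium to KChIPs, did not share a direction. Cacna1h was higher in dentate gyrus (log2 1.21, SE 0.23), and Cacna1g (-2.27, SE 0.42) and Cacna1i (-2.24, SE 0.45) were higher in cortex. Dlg1, a scaffold gene, was also higher in cortex (-1.17), and Grm5, a glutamate receptor gene, in dentate gyrus (0.76). Without cortex replicate 2 the calls of Cacna1i (adjusted p 0.0572) and Dlg1 (0.0550) were lost, and without both libraries that stood apart those of Cacna1h (0.0509) and Grm5 (0.0601).

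Genes linked to KChIP3 as a transcriptional repressor were also read. Fos, an activity-induced gene with a DREAM site, was at 13.1 and 7.14 CPM in cortex and 2.07, 0.444 and 1.10 CPM in dentate gyrus (log2 -3.06, SE 0.75, adjusted p 0.0171, but 0.172 without cortex replicate 1). The prodynorphin gene Pdyn, the classical DREAM target, was at 1.57 and 13.3 CPM in cortex and 37.0, 21.5 and 33.1 CPM in dentate gyrus, and did not pass (adjusted p 0.0721).

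Genes whose pattern over the 5 libraries was most like that of Kcnip2 and Dpp10 were sought among 7504 genes with a mean of at least 10 CPM, by the root mean square distance between centred log2 CPM values. For Kcnip2 the nearest were Rbfox1, a neuronal splicing factor gene (distance 0.0630), Gse1 (0.0728) and the transcription cofactor gene Cbfb (0.0757). Rbfox1 was at 880 and 991 CPM in cortex and 2820, 2590 and 2840 CPM in dentate gyrus. For Dpp10 they were Asap1, an ARF GTPase-activating protein gene (0.0624), Tgfb1i1 (0.170) and the phosphatase gene Dusp26 (0.195). Asap1 was at 409 and 384 CPM in cortex and 30.1, 70.5 and 24.4 CPM in dentate gyrus. That replicate 2 was the highest of its tissue follows from the choice of Asap1 by likeness to Dpp10.

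**Figure D4:**
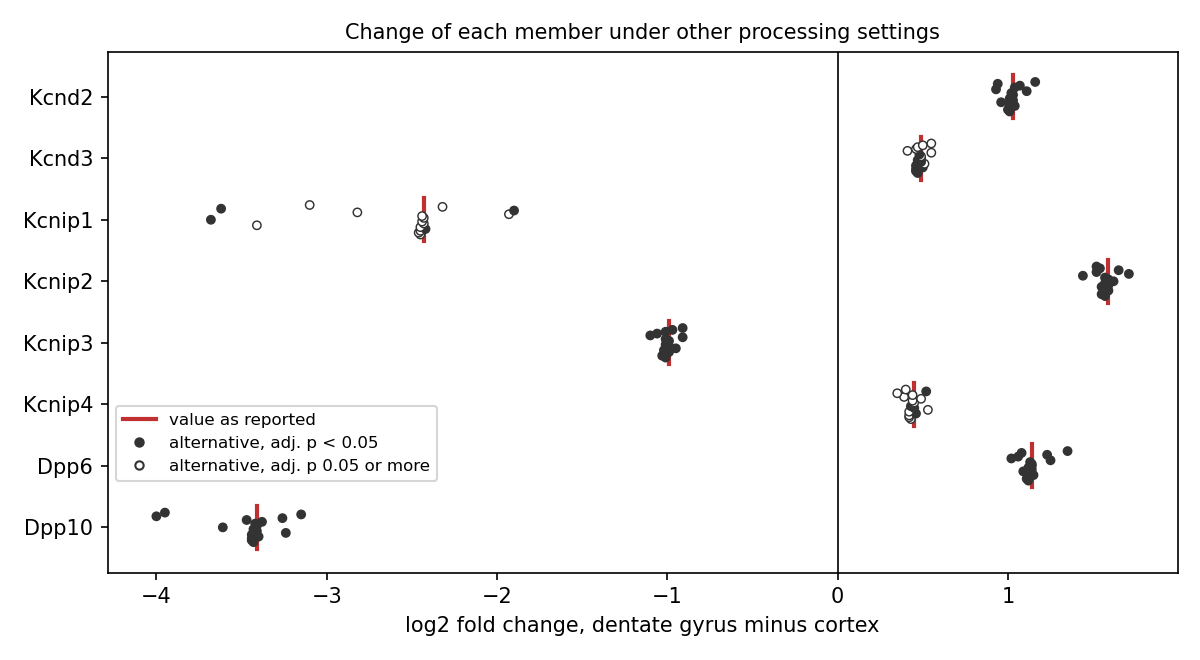
Log2 fold change of each member, dentate gyrus minus cortex, under 17 other processing settings (points, filled where the adjusted p was under 0.05) beside the value as reported (red line). Kcnd2, Kcnip2, Kcnip3, Dpp6 and Dpp10 were called in all 17, and Kcnip1 ranged from -3.68 to -1.90.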

How the data were processed

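Each library has 1 deposited table of unnormalized counts for gene symbols. STAR 2.0.0e and HTSeq were used on mm10, per the submitters' processing notes, while the annotation, strand setting and HTSeq version were not given in the sources used here. Rows that name no gene (40.2% to 44.6% of counted reads, including reads that matched several places) were left out. Counts were fitted with edgeR 4.0.16 in R 4.3.3: TMM scaling, filterByExpr, quasi-likelihood F test of tissue over 14136 genes, Benjamini-Hochberg adjustment over all of them. CPM values use TMM-scaled library sizes (factors 0.984 to 1.02). Lengths, positions and coding sequences are from GENCODE M21 (GRCm38, the build of mm10). Same-tissue libraries differed by more than counting noise (chi-square per degree of freedom 42.4 to 58.6).

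The members and lists were chosen with earlier results of these data known. Named genes were every member, Kcnd1, called genes of the short related lists, up to 4 called genes with the smallest adjusted p in each of the calcium sensor and regulator lists, and the 3 nearest patterns of the most changed called member in each direction. Alternatives included DESeq2 1.42.0, limma 3.58.1 voom, other scalings and filters, and leaving out libraries. Some genes that the rule names are not reported here. The procedure was tested on simulated data, where it recovered part of the changed genes. Floors cover counting error only. Figures used matplotlib 3.10.9.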

Additional observations from a re-analysis of the deposited data

How the results depend on the processing

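The direction of each member was the same in all 136 combinations of 8 members and 17 alternatives. Kcnd2, Kcnip2, Kcnip3, Dpp6 and Dpp10 were called in each alternative, with the highest adjusted p at 0.0258 for Kcnd2. Members higher in dentate gyrus numbered 3 with a replicate block, 3 when the change had to exceed 1.5-fold, 3 with both libraries that stood apart left out (cortex replicate 1, dentate gyrus replicate 2), and 3 to 4 without single libraries, where Kcnd3 lost its call each time and Kcnip4 each time but without dentate gyrus replicate 3. Of 492 values for 29 other genes tried, 453 stayed on the same side of the threshold (for Kcnd1 that of no call), 39 lost a call and 0 reversed. Called genes in all numbered 3009 as reported, with 1481 higher in dentate gyrus and 1528 in cortex. They were 1545 (706 and 839) for a change above 1.5-fold, 1578 (771 and 807) without both libraries, and 1886 to 2775 (908 to 1276 and 913 to 1499) without single libraries, with 1906 called without cortex replicate 1 and 1886 without cortex replicate 2. Where 1 cortex library was left, it was assumed to vary like the others. The cause was not tested. With the longest transcript as length, the difference in share, dentate gyrus minus cortex, was 24.1 points for Dpp6 and -24.1 for Dpp10, against 42.9 and -42.9 with merged exons, as the Dpp6 lengths differ. The same length was applied to levels and ratios after seeing the data. Replicate numbers 1 and 2 occur in both tissues, and the labels do not say whether the numbers are a pairing. Same-numbered libraries did not deviate together over all tested genes (correlation -0.011). This cannot settle a pairing, since the deviations of 2 cortex libraries mirror each other. With the replicate block 2237 genes were called. Kcnip1 had the fewest counts of the members, 20 in dentate gyrus replicate 1, although that library had the most gene counts.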
